A study of Eragrostis tef with 16 samples.

Results

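The shoot response of tef (Eragrostis tef) to low calcium was described from 8 of the 16 RNA-seq libraries of the series, 4 of low calcium shoots (LCS) and 4 of control shoots (ConS). LCS plants were grown hydroponically with 0.01 mM Ca and ConS plants with 1 mM Ca. Both groups were of 1 accession, chosen by the study for its high seed calcium, grew in a modified Hoagland solution for about a month and were sampled as whole shoots, so that the response is that of a single genotype at 1 stage. The other 8 libraries were of roots at the same calcium levels (LCR and ConR, 4 each) and were used to fit the spread between libraries, to check the tissue label and to show where shoots differed. Libraries were chosen by their labels alone. Libraries keep their S numbers, which are S5 to S8 in LCS and S13 to S16 in ConS.

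Calcium reaches the shoot in the xylem with the transpiration stream and is hardly moved back in the phloem, so new leaves depend on current supply. In the cytosol its level is kept low. Calcium-transporting ATPases and cation/calcium exchangers remove it to the apoplast, the vacuole and the endoplasmic reticulum, while channels such as cyclic nucleotide-gated channels (CNGCs) and glutamate receptor-like proteins (GLRs) let it enter. Its short rises are read by calcium-binding proteins and by calcium-dependent protein kinases (CDPKs), which carry their own calcium sensor.

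Total counts were 9959542 to 11720368 in LCS and 14640539 to 15590039 in ConS, so every LCS library was shallower (p = 0.0286 by a two-sided exact permutation test, the lowest p possible with 4 against 4). Levels are given in CPM, the counts relative to library totals after TMM scaling in edgeR, and fold changes are log2 values of LCS over ConS. A differentially expressed gene (DEG), here called raised or lowered, had an adjusted p below 0.05 in edgeR's quasi-likelihood test with Benjamini-Hochberg adjustment over 56746 genes. The biological coefficient of variation was 34.4% among LCS and 29.6% among ConS libraries. The tissue label was checked on 39 genes at 50 CPM or more in every root library and below 1% of their ConR mean in every ConS library (a rule set after seeing the data, since the first rule found no gene). In the LCS libraries, which did not choose them, their median level was 0.720% to 1.03% of ConR, and in the ConS libraries it was 0.562% to 0.680%. Whole shoots mix many cell types, and fewer cells of a type cannot be told apart from less RNA per cell.

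The shoot response was broad and made up mostly of rises, with 14619 DEGs between LCS and ConS (25.8% of the genes tested). Of these, 9488 genes were raised (16.7% of all tested) and 5131 were lowered (9.04%). The sizes of the changes were unequal. Raised genes had a median log2 fold change of 2.24 (quartiles 1.33 and 3.44), and 8092 of them (85.3%) reached 1. Lowered genes had a median of -0.78 (quartiles -1.02 and -0.61), and 1342 (26.2%) reached -1. A log2 change of 2 or more was found in 5285 raised and 142 lowered genes. With the 419 raised genes at 0 counts in every ConS library and the 25 lowered genes at 0 counts in every LCS library set to the bound that 3 counts over the group allow, the medians were 2.17 and -0.78, and 5129 and 119 genes reached 2. The median of all genes tested was 0.11.

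The libraries of the groups did not overlap for 6635 of the raised genes (69.9%) and 3633 of the lowered genes (70.8%). Over all genes tested, every LCS library was above every ConS library in 13.4% and below in 9.26%. Without LCS S8 the DEGs numbered 9483, of which 9363 were among the 14619, and the lowered genes fell to 2606. Without LCS S6 the lowered genes numbered 3117. The raised genes numbered 6877 to 10373 with any 1 library left out.

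Raised genes were scarce in control shoots and lowered genes were abundant there. The median raised gene had a mean of 4.55 CPM in LCS, beside 0.808 CPM in ConS, and the median lowered gene had 16.7 CPM in LCS, beside 28.2 CPM in ConS. Over all genes tested the medians were 3.55 CPM in LCS, beside 2.47 CPM in ConS. Among 11680 genes with a ConS mean of 0.1 to 1 CPM, 28.1% were raised and 0.711% were lowered. Among 15478 genes at 10 to 100 CPM, 7.51% were raised and 23.1% were lowered, and of 1933 genes at 100 CPM or more, 2.95% were raised and 34.0% were lowered. A fall in a scarce gene is harder to detect than a rise, so depth limits the share of lowered genes at low levels. The ConS mean is also 1 side of the contrast that made the calls, so these levels and shares are a description.

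**Figure D1:**
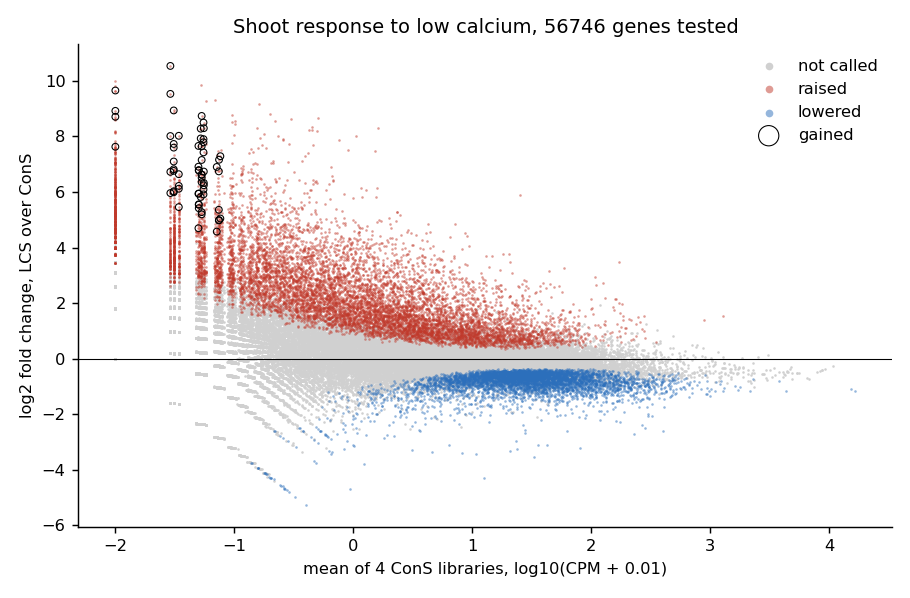
Each point is 1 of the 56746 genes tested, with its mean level in the 4 ConS libraries as log10(CPM + 0.01) on the x axis and its log2 fold change of LCS over ConS on the y axis. Raised genes (red, 9488) spread upwards at low control levels, lowered genes (blue, 5131) form a shallow band at higher levels, and rings mark the 63 genes gained in LCS; the streaks at the left are genes with few or no counts in ConS.

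The shift in composition was also seen in measures that use no gene calls. With every shoot library thinned to 9959542 counts, 48854 to 51969 genes had a count in LCS libraries and 46069 to 47019 in ConS libraries, a difference in means of 3746 genes (exact permutation test, two-sided, p = 0.0286, adjusted p = 0.0429 over 6 measures). The 100 most abundant genes of a library held 15.96% to 23.7% of its counts in LCS and 21.6% to 26.9% in ConS (p = 0.0571 by the same exact permutation test), and these ranges overlapped. Raised genes took up 12.7% of the counts in LCS S5, 16.3% in S6, 9.19% in S7 and 21.3% in S8, against 3.45% to 5.34% in ConS. Lowered genes held 12.7% to 20.3% in LCS and 23.6% to 28.5% in ConS. The last 4 ranges follow from the calls themselves and are given as a description.

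Genes were counted as gained when they had at least 1 CPM in every LCS library and less than 0.1 CPM in every ConS library, and as lost in the opposite case. By this rule 63 genes were gained and none was lost. The rule is not symmetric at these depths, because 1 count was worth 0.0958 to 0.116 CPM in LCS and 0.0760 to 0.0966 CPM in ConS. Any ConS library could thus hold 1 count of a gained gene, while LCS S6 and S7 had to hold no count of a lost gene. With absence set at 0.2 CPM the rule gave 141 gained genes, with all shoot libraries thinned to the smallest total it gave 14, and with 0 counts required it gave 4. The number of lost genes was 0 in each of these settings. The numbers use the contrast itself and carry no test.

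The 63 gained genes were low to moderate in LCS, with a median of their means of 4.30 CPM. Their median level was 2.87 CPM in S5, 4.40 CPM in S6, 1.87 CPM in S7 and 6.13 CPM in S8. Summed over the 63 genes, the level was 347 CPM in S5, 436 CPM in S6, 192 CPM in S7 and 797 CPM in S8, against 1.62 to 2.99 CPM in the ConS libraries. S8 was the highest LCS library for 40 of them and S6 for 20. The number rests most on S7, the weakest library, without which 148 genes met the rule. It was 97 without ConS S14 and 104 without ConS S16.

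Gain was a matter of degree among the LCS libraries. Of 19187 genes below 0.1 CPM in every ConS library, 261 reached 1 CPM in S5, 299 in S6, 117 in S7 and 577 in S8. Of these genes, 360 reached it in a single LCS library, 156 in 2, 110 in 3 and 63 in all 4. As the level of control shoots, each ConS library was set against the other 3, and only 2 to 4 genes reached 1 CPM after being absent from those 3. In the other direction, 30569 genes had at least 1 CPM in every ConS library, and 3 of them were below 0.1 CPM in S5, 4 in S6, 0 in S7 and 8 in S8. No gene was below 0.1 CPM in more than 1 LCS library. ConS S15 set against the other 3 ConS libraries gave 18 such genes, and the other ConS libraries gave 0 to 3.

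**Figure D2:**
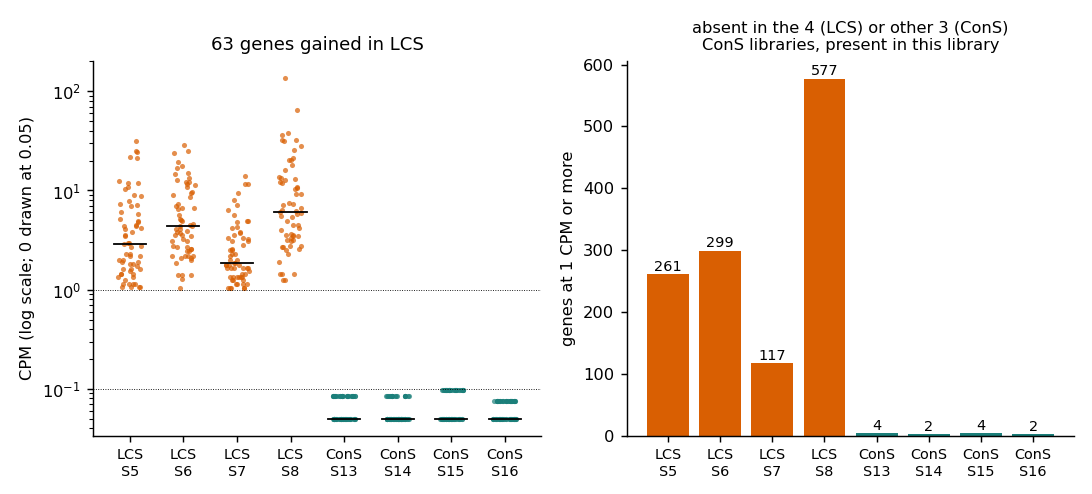
Left, the level in CPM (log scale, a count of 0 drawn at 0.05) of the 63 gained genes in each LCS and ConS library, with black bars at the medians and dotted lines at the limits of 1 and 0.1 CPM. Right, the number of genes at 1 CPM or more in a library among those below 0.1 CPM in the 4 ConS libraries (LCS bars) or in the other 3 ConS libraries (ConS bars); S8 has 577, S7 has 117 and the ConS libraries have 2 to 4.

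The largest rise among DEGs without overlap and with an average log2 CPM from 1 upwards was that of Et_3A_023112, a gene to which the sources used here give no name. It had 31.5 CPM in S5, 16.8 CPM in S6, 2.49 CPM in S7 and 136 CPM in S8, against 0 CPM in ConS S13, S14 and S15 and 0.0760 CPM in ConS S16. These were 1921 counts in LCS and 1 count in ConS. The ratio of the summed levels was 2318 (exact 95% interval 416 to 91599, which covers counting error only and not the wide spread between the LCS libraries). The gained gene next in mean level, Et_1B_013359, had 24.5, 2.20, 1.14 and 64.8 CPM in S5, S6, S7 and S8, with 962 counts in LCS and 1 in ConS, a ratio of 1161 (208 to 45894). S8 was highest and S7 lowest for both. In roots neither exceeded 0.283 CPM in any library.

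The largest fall under the same conditions was that of Et_8B_059382, also without a name. It had 1.53, 5.22, 2.60 and 2.11 CPM in LCS S5 to S8, against 22.9, 34.6, 19.6 and 54.9 CPM in ConS S13 to S16, with a log2 fold change of -3.54 ± 0.35 (SE, adjusted p = 2.41e-06). The groups lay far apart and S6, not S7, was nearest to control. The same gene was lowered in roots, by -2.30 (adjusted p = 0.00192), and its interaction of tissue and calcium, the log2 change in shoots minus that in roots, was -1.24 (adjusted p = 0.138).

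The strength of the response was graded among the LCS libraries. To measure it, 1 library was left out, genes were called between the remaining LCS libraries and ConS, and the median log2 CPM difference of the left-out library from the ConS mean was taken over these genes. Over raised genes it was 1.54 in S5 (8939 genes), 1.84 in S6 (7853 genes), 0.92 in S7 (10373 genes) and 2.37 in S8 (6877 genes). Over lowered genes it was -0.59 in S5, -0.92 in S6, -0.36 in S7 and -1.24 in S8. The order S8, S6, S5, S7 was thus the same in both directions. It was also the same in each of 7 other settings, which were another prior count, thinned counts, upper-quartile scaling, limits on level or on fold change, the 2000 genes of lowest p, and genes called in every fit without an LCS library. The last pair was chosen after seeing the data. The library medians above rest on a different set of genes for each library. Over the 6085 raised genes called in every fit without 1 LCS library they were 1.97 in S5, 2.24 in S6, 1.43 in S7 and 2.57 in S8, and over the 2383 lowered genes -0.78, -1.03, -0.52 and -1.29, so that on common genes the order stood with a narrower gap between S8 and S7. Every LCS library took part in fits that chose these common genes, so the medians over them are a description.

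All 4 LCS libraries moved the same way. Of the raised genes chosen without it, S7 was above the ConS mean in 88.9%, S5 in 94.7%, S6 in 95.5% and S8 in 99.2%. Of the lowered genes, 95.1% were below it in S7 and 99.4% in S8. The ConS libraries, each set against the mean of the other 3, were above that mean in 37.9% to 66.4% of raised genes. They were below it in 38.1% to 81.1% of lowered genes, with the highest share in ConS S16. Each ConS library, set in the same way against the other 3, had a median of -0.14 to 0.25 over raised genes and of -0.30 to 0.07 over lowered genes. The median of S7 was above all of these in raised genes and below all of them in lowered genes, where S7 (-0.36) lay close to ConS S16 (-0.30). The quartiles of S7 overlapped those of ConS S14 and S16 in both directions. In raised genes (0.39 to 1.67 in S7) they also overlapped those of ConS S15, which reached 0.55. The gap between S7 and ConS S16 in lowered genes depended on the setting. With the limit of 1 on fold change, the median of ConS S16 (-0.62) lay farther below 0 than that of S7 (-0.48). It was -0.35 beside -0.36 in S7 with thinned counts, and -0.42 beside -0.43 over the 2000 genes of lowest p. In the remaining settings S7 was also the lower. Except over the common genes, each library has its own set of genes here.

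**Figure D3:**
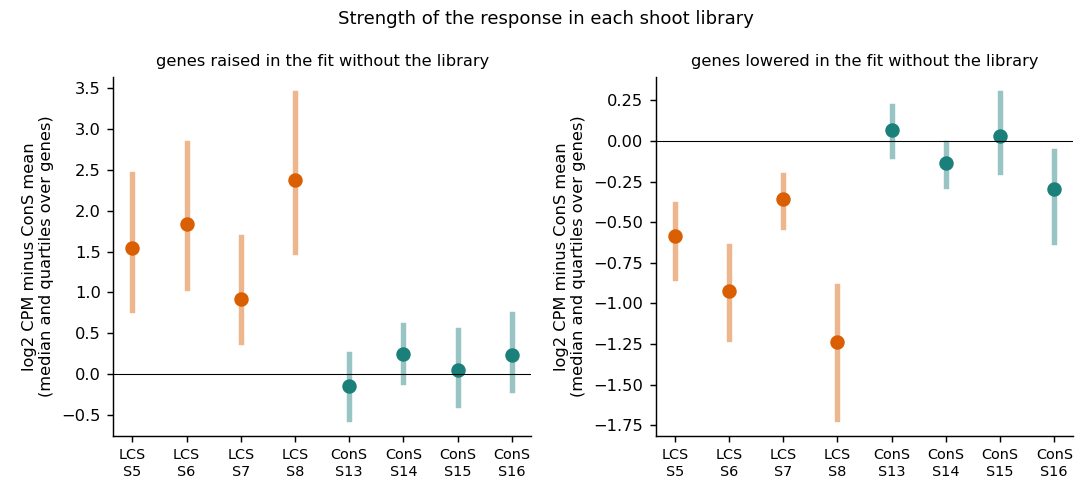
Median (point) and quartiles (bar) over genes of the log2 CPM difference of each shoot library from the ConS mean (LCS libraries) or from the mean of the other 3 ConS libraries (ConS libraries), over genes raised (left) or lowered (right) in the fit without that library. S8 lies farthest from 0 and S7 nearest among the LCS libraries in both panels, and the ConS libraries lie between -0.30 and 0.25.

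Each pair of LCS libraries was also compared on genes called without both, a comparison added after seeing the data. S8 was above S7 in 85.3% of 7321 raised genes and below it in 95.7% of 3044 lowered genes. S6 was above S7 in 84.1% of raised genes, and S8 was above S6 in 65.4%. S5 and S6 were closest, with S6 above S5 in 55.3% of 6647 raised genes by a median of 0.13, although S6 was the lower in 76.0% of 1808 lowered genes. Over genes not called, the median difference between S7 and S8 was 0. The order of S5 and S6 in raised genes rests on a small difference, and that of S8 and S7 on a wide one.

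Other measures of the libraries followed the same order. Genes with a count at the common depth numbered 51969 in S8, 50962 in S6, 49825 in S5 and 48854 in S7. The first principal component of the 8 shoot libraries (58.8% of the variance) placed S8 at 197, S6 at 139, S5 at 100 and S7 at 37.3, with the ConS libraries between -140 and -96.3. Total counts ran the other way, with 9959542 in S8, 10065478 in S6, 11498765 in S5 and 11720368 in S7. After all libraries were thinned to the smallest total of the series, the medians over raised genes were 2.36 in S8, 1.78 in S6, 1.46 in S5 and 0.90 in S7. The second principal component (10.9% of the variance) did not follow this order. It placed S5 at 70.8 and S8 at 62.4, S6 at -94.3 and S7 at -64.0, with the ConS libraries between -21.9 and 29.2. The LCS libraries thus differed in more than the strength of the response.

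Single genes followed this order less closely than the medians did. S8 was the highest LCS library in 53.2% of the raised genes and S7 the lowest in 58.4%. In the lowered genes S8 was lowest in 67.1% and S7 highest in 68.0%. The full order of the 4 libraries held in 1518 of the raised genes and 2043 (39.8%) of the lowered genes, and in 3.72% and 5.68% of the 42127 genes not called. These shares use libraries that took part in the calls.

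In roots the same calcium levels gave 1077 raised (1.90%) and 755 lowered genes (1.33%). Of the 9488 genes raised in shoots, 479 were raised and 60 were lowered in LCR vs ConR. Of the 5131 lowered in shoots, 251 were lowered and 13 were raised. Direction was shared more widely than calls. The root log2 change was above 0 in 76.4% of the genes raised in shoots (median 0.45), beside 52.0% of all genes tested (median 0.03). Among the genes lowered in shoots it was above 0 in 17.8% (median -0.32). The difference between the responses was tested as an interaction of tissue and calcium, which 3351 genes passed (5.91%). Among them were 2778 of the genes raised in shoots (29.3%) and 228 of the genes lowered in shoots (4.44%). For 2776 and 228 of these the interaction had the same sign as the shoot change. That also counts genes that moved the other way in roots, such as CDPK12, with 0.53 in shoots and -1.14 in roots. The interaction shares the shoot libraries that chose these genes, so the counts are a description.

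Some of the gained genes were also found in control roots. In every ConR library 10 of the 63 (15.9%) had at least 1 CPM, a larger share than the 6.14% of the 8133 genes tested that were below 0.1 CPM in every ConS library and a smaller one than the 57.5% of all genes tested. Less than 0.1 CPM in all 8 root libraries was found for 5 gained genes (7.94%), beside 21.97% of those 8133 genes and 5.91% of all genes tested. These shares are a description. In LCR vs ConR 1 gained gene was raised and none was lowered, and 51 passed the interaction test.

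Gene identifiers carry the chromosome and the subgenome, A or B, of this allotetraploid. The response was spread over both, with 17.0% of 28213 A genes and 16.9% of 27515 B genes raised, and 8.94% and 9.26% lowered. Between chromosomes the raised share ran from 14.5% on 6A and 8B to 18.3% on 1B and 9A. Of 1018 genes on unplaced sequence, 2.95% were raised and 5.89% were lowered. Reads that matched both copies of a gene equally well were not counted, so the values of near-identical copies are uncertain.

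The genes that the study lists for calcium and metals were counted next. Its 5 lists hold 109 genes, all tested, of which 15 were raised (13.8%, beside 16.7% of all genes tested), 33 were lowered (30.3%, beside 9.04%) and 61 were not called. Their median log2 fold change was -0.19, beside 0.11 for all genes tested and -0.05 for the 36329 genes with a mean of at least 1 CPM in shoots. Most listed genes lie at levels where falls were common. Of the 69 with 10 to 100 CPM in ConS, 27 were lowered (39.1%, beside 23.1% of all genes at that level) and 5 were raised (7.25%, beside 7.51%). Of the 28 with 1 to 10 CPM, 9 were raised (32.1%, beside 19.8%) and 2 were lowered. None was among the gained genes. The study chose these lists on the same samples, so that the counts are not independent evidence of a direction.

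**Figure D4:**
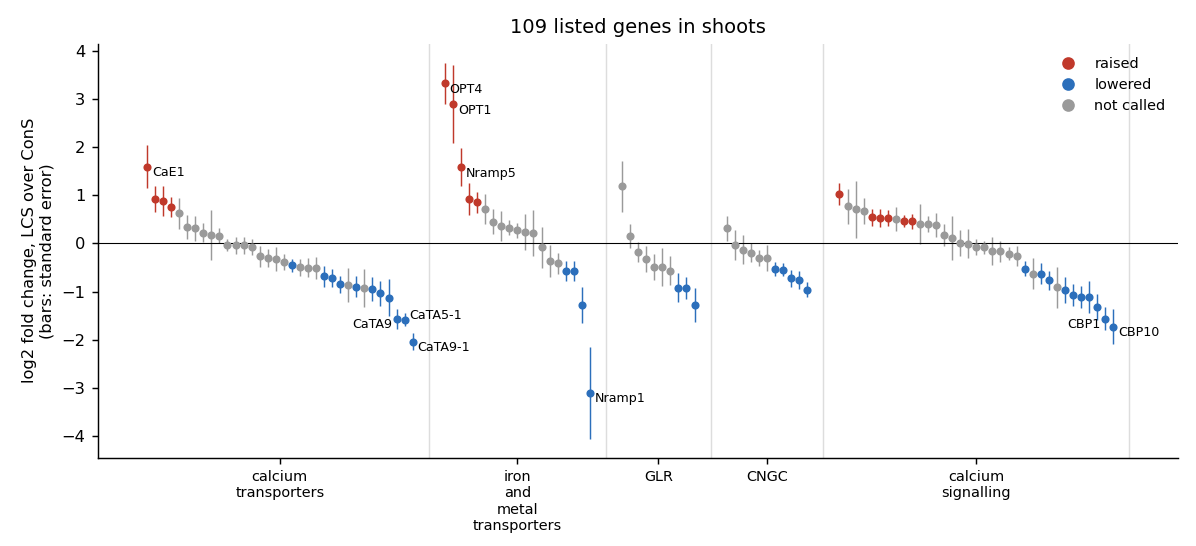
Log2 fold change of LCS over ConS for each of the 109 listed genes, ordered within its list, with bars of 1 standard error. Red points are raised (15), blue points lowered (33) and grey points not called (61), and names are given from a change of 1.5.

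Channels that let calcium into the cytosol were lowered or not called. Of 11 CNGCs, 5 were lowered (45.5%, beside 9.04% of all genes tested) and none was raised (median of the list -0.30). Of the 9 with 10 to 100 CPM in ConS, 4 were lowered, beside 23.1% of all genes at that level. CNGC1 (Et_2A_016805) had 18.7, 17.2, 16.7 and 15.2 CPM in LCS S5 to S8, against 39.4, 30.4, 33.7 and 28.1 CPM in ConS S13 to S16, with a log2 fold change of -0.96 ± 0.16 (SE, adjusted p = 0.000425). The LCS libraries were close to one another and all below ConS. CNGC1-1 (-0.76), CNGC17 (-0.73), CNGC6 (-0.55) and CNGC17-1 (-0.53) had adjusted p-values of 0.00554 to 0.00885, also without overlap. These 5 calls held with every library left out. The 6 others, among them CNGC2, CNGC20 and the CNGC4 genes, had values from -0.30 to 0.31 and were not called.

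Of 10 GLRs, 3 were lowered (30%, beside 9.04% of all genes tested) and none was raised (median -0.49). Of the 5 with 10 to 100 CPM in ConS, 2 were lowered, beside 23.1% of all genes at that level. GLR3.1 (Et_7A_052266), the most abundant of the 10 GLRs, had 137 CPM in LCS S5, 96.3 CPM in S6, 194 CPM in S7 and 49.6 CPM in S8. Control shoots had 337, 266, 415 and 142 CPM in S13 to S16, so that ConS S16 overlapped S7. Its log2 fold change was -1.28 ± 0.35 (SE, adjusted p = 0.0128). GLR3.4-1 was lowered by -0.92 (adjusted p = 0.00688) without overlap and GLR3.4-3 by -0.92 (adjusted p = 0.0355). GLR3.4-3 was not called without LCS S6 or S8 or without ConS S13, S14 or S15 (adjusted p = 0.0576 to 0.12, over all alternatives 0.00791 to 0.12). GLR2.8 had the highest value of the family, 1.19 ± 0.53 (SE), and was not called (adjusted p = 0.111). Without ConS S16, 5 GLRs were called, and with any other library left out 2 to 4.

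The 7 uniporter genes (CaUP) have animal counterparts that carry calcium into mitochondria. Of the 7, 2 were raised (28.6%, beside 16.7% of all genes tested) and 1 was lowered (14.3%, beside 9.04%). CaUP3 (Et_1A_008615) had 13.5, 13.9, 21.9 and 8.82 CPM in LCS S5 to S8, against 24.7, 26.4, 35.4 and 32.5 CPM in ConS S13 to S16, with a log2 fold change of -1.03 ± 0.26 (SE, adjusted p = 0.00679). S7 came close to the lowest ConS library without reaching it. CaUP2 (0.93, adjusted p = 0.0181) and CaUP6-1 (0.76, adjusted p = 0.0124) were raised. CaUP2 was not called without LCS S6 or ConS S15 (adjusted p = 0.0556 and 0.0589, over all alternatives 0.00828 to 0.0589), nor CaUP6-1 without ConS S13 (adjusted p = 0.0659, over all alternatives 0.00278 to 0.0659).

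The calcium-transporting ATPases, pumps that use ATP to clear calcium from the cytosol, held most of the lowered transporters. Of 14 CaTA genes, 9 were lowered (64.3%, beside 9.04% of all genes tested), none was raised and 5 were not called, and their median was -0.76. At 10 to 100 CPM in ConS, 7 of 11 were lowered, beside 23.1% of all genes at that level. In CaTA9-1 (Et_6A_046490) the LCS libraries had 15.1, 15.3, 18.4 and 9.59 CPM and the ConS libraries 66.3, 67.7, 55.1 and 50.2 CPM. CaTA5-1 (Et_8A_057406) had 22.1, 18.8, 24.7 and 17.9 CPM in LCS, against 66.8, 62.2, 62.5 and 58.0 CPM in ConS. CaTA9 (Et_10A_001147) had 46.8, 27.0, 49.3 and 26.6 CPM in LCS, against 120, 102, 132 and 90.9 CPM in ConS. Their log2 fold changes were -2.04 ± 0.18 for CaTA9-1, -1.58 ± 0.14 for CaTA5-1 and -1.57 ± 0.21 for CaTA9 (± SE), with adjusted p-values of 7.81e-07, 7.68e-07 and 3.62e-05. In all 3 genes S7 was the highest LCS library and S8 the lowest, the groups were far apart, and the calls held under every alternative. Their interaction with tissue was -1.34, -0.69 and -1.24 (adjusted p = 0.00363, 0.0432 and 0.0139).

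Smaller falls were found in CaTA5 (-0.94, adjusted p = 0.0101), CaTA10-1 (-0.90, adjusted p = 0.00616), CaTA6 (-0.85, adjusted p = 0.0016), CaTA3-1 (-0.68, adjusted p = 0.0296) and CaTA5-2 (-0.46, adjusted p = 0.0187). CaTA5-2 was not called after every library had been thinned to one total (-0.34, adjusted p = 0.11) or with the 8 shoot libraries alone (adjusted p = 0.0563, over all alternatives 0.00142 to 0.11). CaTA3-1 was not called without LCS S6, LCS S8 or ConS S16 (adjusted p = 0.074 to 0.0894, over all alternatives 0.0147 to 0.0894). CaTA10 (Et_4B_039870) had 64.0, 108, 67.0 and 62.7 CPM in LCS, against 91.0, 83.2, 389 and 95.5 CPM in ConS, with a log2 fold change of -1.13 ± 0.38 (SE, adjusted p = 0.0368). That value rests on ConS S15, without which it was -0.31 (adjusted p = 0.262, over all alternatives 0.0134 to 0.262), and the call was also lost without LCS S5, S7 or S8. The 2 CaTA3 genes Et_4A_033710 and Et_7B_054771, CaTA3-2, CaTA4 and CaTA4-1 were not called, with values from -0.51 to 0.31.

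Cation/calcium exchangers trade calcium for other ions across membranes. Of 5 CaE genes 2 were raised (40%, beside 16.7% of all genes tested) and none was lowered (beside 9.04%). So few genes give no direction for the family. CaE1 (Et_10A_001931) had 9.58 CPM in LCS S5, 37.3 CPM in S6, 18.9 CPM in S7 and 20.9 CPM in S8, against 5.53, 10.97, 2.51 and 9.50 CPM in ConS S13 to S16. Only S5 overlapped ConS. Its log2 fold change of 1.59 ± 0.44 (SE, adjusted p = 0.0131) was 1.20 without LCS S6 (adjusted p = 0.0628, over all alternatives 0.00427 to 0.0628). CaE1-3 (0.88, adjusted p = 0.0452) was not called without LCS S6 or S7 or without ConS S13, S14 or S16, and was 0.52 (adjusted p = 0.228, the highest over its alternatives) without LCS S6. Among the 3 mitochondrial exchangers, CaME1 was lowered by -0.71 (adjusted p = 0.00979) without overlap. The sodium/calcium exchanger NaCaE1 (-0.27), the 2-pore channel TPCaC1 (-0.86) and the stress-gated channel CaCC1 (-0.49) were not called.

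Calcium-binding proteins and kinases changed in both directions. Of the 35 signalling genes, 6 were raised (17.1%, beside 16.7% of all genes tested), 10 were lowered (28.6%, beside 9.04%) and 19 were not called. Of the 22 with 10 to 100 CPM in ConS, 9 were lowered, beside 23.1% of all genes at that level. Without LCS S8, 9 of them were called in place of 16. In CBP10 (Et_6B_049755) LCS had 2.78, 12.2, 7.68 and 6.42 CPM and ConS 19.9, 17.2, 32.9 and 25.9 CPM, with a log2 fold change of -1.73 ± 0.36 (SE, adjusted p = 0.00214). CBP1 (Et_1B_010286) had 21.0, 49.3, 26.2 and 36.0 CPM in LCS, against 79.0, 99.8, 98.5 and 114 CPM in ConS, with a log2 fold change of -1.56 ± 0.24 (SE, adjusted p = 0.000147). The groups did not overlap in either gene. S5 was lowest and S6 highest within LCS, unlike the order of the libraries over all DEGs.

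Further calcium-binding genes were lowered in the same pattern. CBP9 (Et_6A_046999) had 7.57, 17.4, 8.41 and 14.8 CPM in LCS and 22.2, 19.6, 33.9 and 25.3 CPM in ConS (-1.07 ± 0.24 SE, adjusted p = 0.00307). CBP8 (Et_2A_018508) had 2.49, 4.75, 3.63 and 2.88 CPM in LCS and 7.04, 5.78, 9.85 and 7.07 CPM in ConS (-1.11 ± 0.33 SE, adjusted p = 0.0183), and was not called without LCS S8 (adjusted p = 0.056, the highest over its alternatives). S6 was again the highest LCS library in both. CBP2 (Et_1B_014273) was the 1 raised CBP of 17, with 18.2, 25.5, 18.7 and 17.2 CPM in LCS and 8.46, 11.1, 7.53 and 12.01 CPM in ConS, with a log2 fold change of 1.02 ± 0.23 (SE, adjusted p = 0.00319) without overlap. The other 12 CBPs were not called.

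CDPKs phosphorylate their targets when calcium binds. Of 14 members 2 were raised (14.3%, beside 16.7% of all genes tested) and 5 were lowered (35.7%, beside 9.04%). Of the 10 with 10 to 100 CPM in ConS, 5 were lowered, beside 23.1% of all genes at that level. CDPK4 (Et_7A_052314) had 19.2, 13.6, 20.8 and 9.30 CPM in LCS, against 50.1, 37.9, 45.6 and 22.8 CPM in ConS, with a log2 fold change of -1.32 ± 0.27 (SE, adjusted p = 0.0018). CDPK5 (Et_7B_054972) had 11.4, 6.96, 13.1 and 8.24 CPM in LCS and 25.4, 16.8, 28.7 and 15.3 CPM in ConS, with a log2 fold change of -1.11 ± 0.23 (SE, adjusted p = 0.00196). In both genes S7 and S5 were the highest LCS libraries, ConS S16 was lowest in its group, and the groups stayed apart. Both calls held with every library left out, and their interaction with tissue was -1.64 and -1.66 (adjusted p = 0.0172 and 0.00607).

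The other changes among kinases were smaller. CDPK11 (-0.96, adjusted p = 0.0147), CDPK7 (-0.62, adjusted p = 0.0442) and CDPK8 (-0.52, adjusted p = 0.0211) were not called without LCS S8 or without ConS S15, nor CDPK7 without LCS S5 or S7. Without ConS S15 the value of CDPK11 was -0.59. CDPK6 (0.54, adjusted p = 0.0427) and CDPK12 (0.53, adjusted p = 0.0205) were raised. CDPK6 was not called without any of 6 libraries (LCS S5, S6 and S8, ConS S13, S14 and S15), and CDPK12 without LCS S5, ConS S14 or ConS S16. CDPK12 was lowered in roots, by -1.14 (adjusted p = 0.00125), and its interaction was 1.67 (adjusted p = 0.000274). Of the calcium/calmodulin-dependent kinases, CCDSTK1 was lowered (-0.77, adjusted p = 0.0102) and CCDSTK2 (0.47, adjusted p = 0.0153) and CCDSTK3 (0.55, adjusted p = 0.0297) were raised. CCDSTK2 was not called without ConS S13, and CCDSTK3 without LCS S5 or S8 or without ConS S14 or S15. Calcineurin B (0.46, adjusted p = 0.042) kept its call only without LCS S7 when a library was left out. Over the left-out libraries that ended a call of these 8 genes the adjusted p was 0.0525 to 0.166, and over all their alternatives it was 0.00169 to 0.166.

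The widest fold changes of the listed genes were in metal transporters. Of these, 5 of 19 were raised (26.3%, beside 16.7% of all genes tested), 4 were lowered (21.1%, beside 9.04%) and 10 were not called (median 0.27). Of the 8 with 10 to 100 CPM in ConS, 3 were lowered, beside 23.1% of all genes at that level. Only 4 of the 19 were called without LCS S6 and 3 without LCS S8. Oligopeptide transporters (OPT) carry small peptides and, in some members, metal chelates. OPT4 (Et_1B_013097) had 32.2 CPM in LCS S5, 44.9 CPM in S6, 24.2 CPM in S7 and 59.5 CPM in S8, against 3.43, 6.63, 1.55 and 4.33 CPM in ConS S13 to S16. Its libraries followed the order of the response, S8, S6, S5, S7, and the lowest of them was several times the highest ConS library. The log2 fold change was 3.32 ± 0.43 (SE, adjusted p = 2.81e-05), and its interaction with tissue was 2.11 (adjusted p = 0.029). OPT1 (Et_8A_058302) was scarce, with 0.862, 0.464, 0.208 and 2.396 CPM in LCS and 0.251, 0, 0.0966 and 0.152 CPM in ConS. Its log2 fold change of 2.89 ± 0.81 (SE, adjusted p = 0.0139) rests on S8, without which it was 1.95 (adjusted p = 0.112, the highest over its alternatives).

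Nramp proteins carry iron, manganese and other divalent metals, and 5 of the 6 Nramp genes were called. Of the 6, 2 were raised (33.3%, beside 16.7% of all genes tested) and 3 were lowered (50%, beside 9.04%). Of the lowered genes, 2 had 10 to 100 CPM in ConS, where 23.1% of all genes were lowered. The other, Nramp2, had 100 CPM or more, where 34.0% of all genes were lowered. Nramp5 (Et_5A_041086) had 5.94, 3.48, 1.246 and 4.70 CPM in LCS, against 1.76, 1.36, 1.55 and 0.532 CPM in ConS, with S7 inside the range of ConS. Its log2 fold change was 1.58 ± 0.39 (SE, adjusted p = 0.00711). In roots it was lowered by -1.251 (adjusted p = 0.0359), and its interaction was 2.83 (adjusted p = 0.00236). Nramp6 was raised by 0.93 (adjusted p = 0.0456), a call lost without LCS S5, S6 or S8 or without ConS S13, S14 or S15 (adjusted p = 0.0773 to 0.145, over all alternatives 0.00317 to 0.145).

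Nramp2 (Et_4A_034655) had 131, 110, 225 and 96.7 CPM in LCS, against 293, 212, 632 and 225 CPM in ConS, with a log2 fold change of -1.28 ± 0.37 (SE, adjusted p = 0.017). S15 stood above the other ConS libraries, and without it the value was -0.84 (adjusted p = 0.0689, the highest over its alternatives). The call was also lost without LCS S6 or S8. Nramp1 (Et_5A_041073) had 4.98, 2.55, 6.33 and 2.59 CPM in LCS and 15.2, 7.74, 118 and 1.52 CPM in ConS, with a log2 fold change of -3.10 ± 0.95 (SE, adjusted p = 0.0232). S15 alone sets that size, since without it the value was -1.04 (adjusted p = 0.31, over all alternatives 0.00556 to 0.347), and it was not called without LCS S6 or S8. Nramp3 (-0.57, adjusted p = 0.0423) was not called without LCS S6 or S8 or without ConS S13, S14 or S15 (adjusted p = 0.0544 to 0.14, over all alternatives 0.015 to 0.14).

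Yellow stripe-like (YSL) proteins move metals bound to nicotianamine or phytosiderophores. Of 7 genes 1 was raised (14.3%, beside 16.7% of all genes tested) and 1 was lowered (14.3%, beside 9.04%). YSL12 rose by 0.85 (adjusted p = 0.00861) without overlap and kept its call with every library left out. YSL6 (-0.57, adjusted p = 0.0444) was not called without LCS S5, S6 or S8 or without ConS S13 or S16 (adjusted p = 0.0606 to 0.149, over all alternatives 0.00146 to 0.149). The vacuolar iron transporters VIT1 (0.72, adjusted p = 0.101) and VIT5 (0.37, adjusted p = 0.426) were not called.

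**Figure D5:**
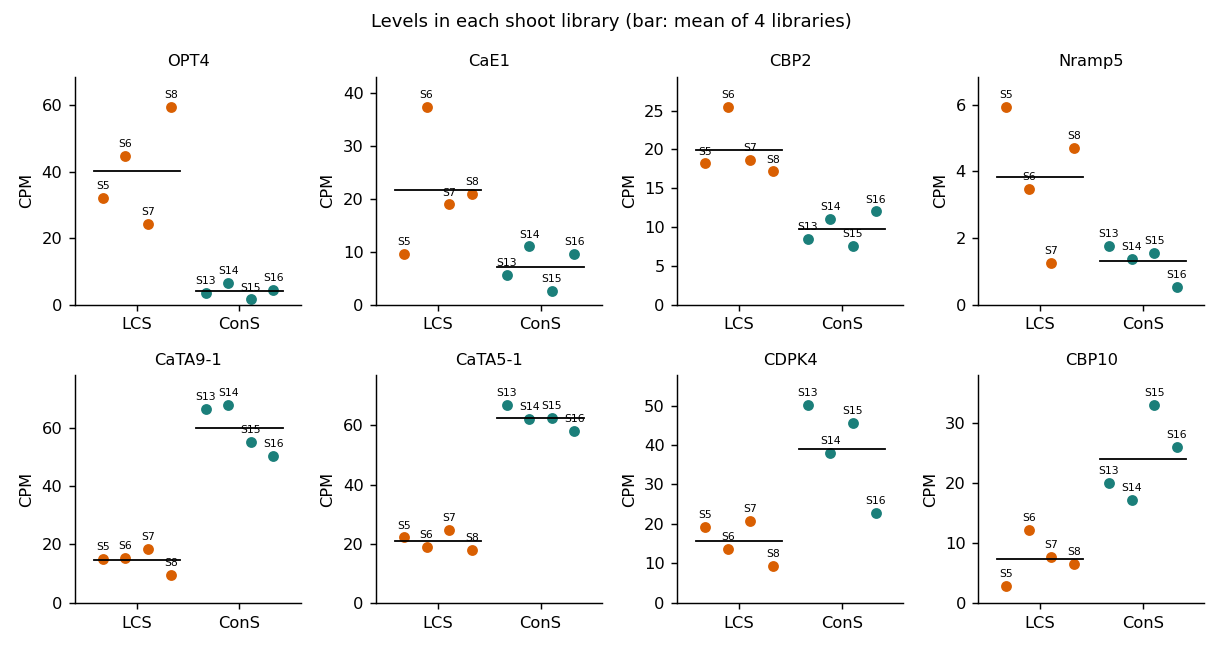
Level in CPM (linear axes from 0) of 8 listed genes in each LCS and ConS library, marked by its S number, with a bar at the mean of the 4 libraries of a group. OPT4, CBP2, CaTA9-1, CaTA5-1, CDPK4 and CBP10 show no overlap of the groups, while S5 of CaE1 and S7 of Nramp5 lie within the ConS range.

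The libraries weighed unequally in the listed genes. ConS S15 was the highest of the 8 shoot libraries in 37 of the 109 genes (33.9%), beside 15.8% of all genes tested, and in 18 of the 33 lowered ones. Over all 5131 lowered genes S15 was highest in 44.7%. Within LCS, S8 was the lowest library for 19 of the 33 lowered genes, and of the 15 raised genes S8 was highest in 7 and S6 in 6. S15 also had the lowest TMM factor of the shoot libraries, 0.688 beside 0.803 to 0.844 in the other ConS libraries, and its part in these levels was not tested. Of the 48 listed genes called, 22 held under all 19 alternatives and 22 lost the call with at least 1 library left out, and none changed direction under any of them. After every library had been thinned to one total, 8 of the 48 lost the call (CaTA3-1, CaTA5-2, CaE1-3, YSL6, Nramp6, GLR3.4-3, CDPK7 and calcineurin B, adjusted p = 0.0532 to 0.139). With the 8 shoot libraries alone 15 lost it (adjusted p = 0.0563 to 0.144).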

How the data were processed

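RNA of tef shoots and roots at low or control calcium was sequenced by the authors as paired-end Illumina libraries, 4 per group, which they describe as independent biological replicates. They trimmed reads with sickle, aligned them to the tef V3.1 genome with hisat2 and counted reads per gene with htseq-count, using strand. The deposited table holds these counts for 68255 genes in 16 libraries, without normalization. No gene had a name in the table, and names come from the study's gene lists. Reads carry no molecular identifiers, so intervals cover counting error only.

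The 56746 genes counted at least once in 4 or more libraries were tested in R 4.3.3 with edgeR 4.0.16 (TMM, estimateDisp, glmQLFit, glmQLFTest), with a term per group over all 16 libraries. DEGs had a Benjamini-Hochberg adjusted p below 0.05. Log2 CPM used a prior count of 2. Library measures were compared by exact permutation tests. Tables and figures were made with Python 3.11.15. The fit was tested on simulated data with few changed genes, as many raised as lowered. That setting differs from the broad and mostly raised response found here, so it does not measure errors under such a response.

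Alternatives were DESeq2 1.42.0, limma-voom (limma 3.58.1), other scalings, filters, thresholds and depths, the 8 shoot libraries alone, and each shoot library left out in turn. Listed genes were named where they passed the threshold and given by library from a log2 change of 1. Of unnamed genes, the largest rise, the largest fall and the gained gene highest in LCS that was not yet named were given. The members and lists were chosen with earlier results of these data known. No genome or annotation was used here.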

Additional observations from a re-analysis of the deposited data

Results flagged for a closer look

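In 114 groups of 4 libraries, each holding 1 named gene or library measure, 8 had a library whose gap to the next exceeded Dixon's 95% critical share of the group's range, and chance alone gives about 1 in 20. Among genes, ConS S15 lay far above the other ConS libraries with 389 CPM of CaTA10, 81.1 CPM of CaTA10-1 and 118 CPM of Nramp1. ConS S16 had 23.5 CPM of CCDSTK1, below the rest of its group. LCS S6 had 108 CPM of CaTA10 and LCS S5 had 29.0 CPM of CaTA5-2, both above the other LCS libraries. The 0.0760 CPM of Et_3A_023112 and of Et_1B_013359 in ConS S16 is a single count beside 0 in the other ConS libraries.

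For 12 named genes the shoot and root responses to calcium differed, as the interaction of tissue and calcium in edgeR's quasi-likelihood test with Benjamini-Hochberg adjustment. The difference on the log2 scale was negative for CaTA5-1 (-0.69, adjusted p = 0.0432), CaTA9 (-1.24, adjusted p = 0.0139), CaTA9-1 (-1.34, adjusted p = 0.00363), CDPK4 (-1.64, adjusted p = 0.0172), CDPK5 (-1.66, adjusted p = 0.00607) and CDPK11 (-1.42, adjusted p = 0.0354). It was positive for OPT4 (2.11, adjusted p = 0.029), Nramp5 (2.83, adjusted p = 0.00236), CCDSTK2 (0.66, adjusted p = 0.0432), CCDSTK3 (0.99, adjusted p = 0.0214), CDPK12 (1.67, adjusted p = 0.000274) and Et_3A_023112 (11, adjusted p = 0.0299). The value of Et_3A_023112 depends on the prior count, since ConS held 1 count of it.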

How the results depend on the processing

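The numbers of DEGs, raised and lowered genes stayed within 1.5 times of their main values under other scalings, filters, depths and tools and with the 8 shoot libraries alone. The 8 shoot libraries alone, without the root libraries in the fit of the spread, gave 10730 DEGs, 7158 raised and 3572 lowered. Of these DEGs, 10481 were among the 14619 of the main fit. An adjusted p below 0.01 gave 7592 DEGs, 5783 raised and 1809 lowered, and a limit of 1 on the absolute log2 fold change gave 9434 DEGs with 1342 lowered. With 1 library left out there were 9483 to 16622 DEGs and 2606 to 6249 lowered genes. The raised share was 58.8% to 66.9% of DEGs over the scalings, filters, depths and tools, 64.9% in the main fit.

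At an adjusted p below 0.01 the called genes were 7 calcium transporters, 3 metal transporters, 1 GLR and 6 signalling genes. With a log2 fold change of at least 1 they were 6 calcium transporters, 5 metal transporters, 1 GLR, 0 CNGCs and 7 signalling genes. The 8 shoot libraries alone gave 9 signalling genes. With 1 library left out the ranges were 3 to 9 metal transporters, 2 to 5 GLRs and 9 to 16 signalling genes.

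Gained genes numbered 4 with 0 counts required in ConS, 141 with absence set at 0.2 CPM, 143 with presence set at 0.5 CPM, 18 with presence set at 2 CPM, 14 on thinned shoot libraries, and 63 to 148 with 1 library left out. On thinned libraries a single count exceeds 0.1 CPM in most libraries, so absence there means no count. Lost genes numbered 0 under every alternative tried. The strength over the 2000 raised genes of lowest p, an alternative chosen after seeing the data, was 2.72 in LCS S5, 3.11 in S6, 1.95 in S7 and 3.51 in S8. Over lowered genes with a log2 fold change of at least 1 it was -1.87 in S8. The interaction test with DESeq2 called 5199 genes. No paired analysis was possible because the groups share no replicate number.

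Depth limits these results most for scarce genes, since 1 count is worth about 0.1 CPM and LCS libraries are shallower than ConS libraries. Calcium level and total count cannot be told apart at the deposited depth, and thinning equalizes totals only.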
